A study of Mus musculus with 203 samples.

Results

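Airway and parenchyma were compared in mice that received both house dust mite extract (HDM, an allergen that models asthma) and cigarette smoke (CS, which models chronic obstructive pulmonary disease). The libraries were those titled 11-Airway-HDM.CS (10 libraries) and 11-Parenchyma-HDM.CS (10 libraries), so 20 of the 160 RNA-seq libraries taken at 11 weeks, and the series held 43 more from 3 weeks. All came from female Balb/C mice aged 18 to 20 weeks at harvest. HDM was given into the nose on 5 days per week for 3 weeks and then 3 times per week from week 4 to week 11, and smoke was given 2 times per day on 5 days per week for 8 weeks. Lungs were separated by blunt dissection into airway and parenchyma before RNA extraction, and none of these mice received dexamethasone. For comparison, 3 other exposures of the same length were used with 10 libraries per compartment each, namely PBS.AIR (PBS vehicle and normal air), HDM.AIR (HDM and normal air) and PBS.CS (PBS vehicle and smoke). Libraries carry codes such as X17, and no label links the compartments of 1 mouse.

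The conducting airways are lined by ciliated cells that move mucus, club and goblet cells that secrete it, and basal cells that renew the layer, all wrapped in smooth muscle and cartilage. The parenchyma is the gas-exchange tissue, built from flat alveolar type I cells, surfactant-making type II cells, capillaries and alveolar macrophages. In allergic disease goblet cells and plasma cells increase, and smoke is known to load the alveoli with macrophages and to induce detoxifying enzymes.

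The total estimated count was 25627295 to 40240710 per airway library and 23795440 to 32942641 per parenchyma library, and values are given as CPM, counts scaled to the library total after TMM adjustment. The airway markers separated the compartments in all 20 libraries: the basal cell keratin Krt5 lay at 5.67, 15.1 and 37.3 CPM (lowest, median and highest library) in airway and 0.252, 0.673 and 1.10 CPM in parenchyma. Separation was partial for other markers, since the club cell secretoglobin Scgb1a1 and the type II cell surfactant protein Sftpc were high in both compartments. In the HDM.AIR groups used for comparison, airway library X109 had 0.405 CPM Krt5 and parenchyma library X90 had 162.01 CPM Foxj1, both in the range of the other compartment, and the HDM.AIR counts, list medians and gene values below are given with and without them.

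Between the compartments of HDM.CS mice, 891 of 18250 tested genes were higher in airway and 40 were lower (limma-voom, adjusted p under 0.05 and a log2 fold change, log2FC, of at least 1 in size). These were 4.88% and 0.219% of the genes tested, and log2FC is airway less parenchyma throughout. The same shares are the background for the counts of genes called in each list for the HDM.CS gap below. The median log2FC over all tested genes was -0.01. Without the size limit, 2204 genes were higher and 1435 were lower in airway. Of the 891 higher genes, 774 were protein-coding and 56 were immunoglobulin genes, and in 337 every airway library exceeded every parenchyma library, against 2.65% of all tested genes. None of the 40 lower genes separated the libraries in this way, against 0.208% of all tested genes.

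On the first principal component, which held 58.95% of the variance of the 500 most variable genes, airway libraries ran from 9.51 to 47.1 and parenchyma libraries from -30.8 to -16.1. The groups therefore did not overlap, but the airway libraries were spread much more widely. The genes with the highest weight on this component were of heart muscle and fat, led by Nppa and Car3. On the second component, with 8.15% of the variance, airway libraries ran from -15.1 to 21.2 and parenchyma libraries from -13.7 to 14.7, and the compartments overlapped.

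**Figure D1:**
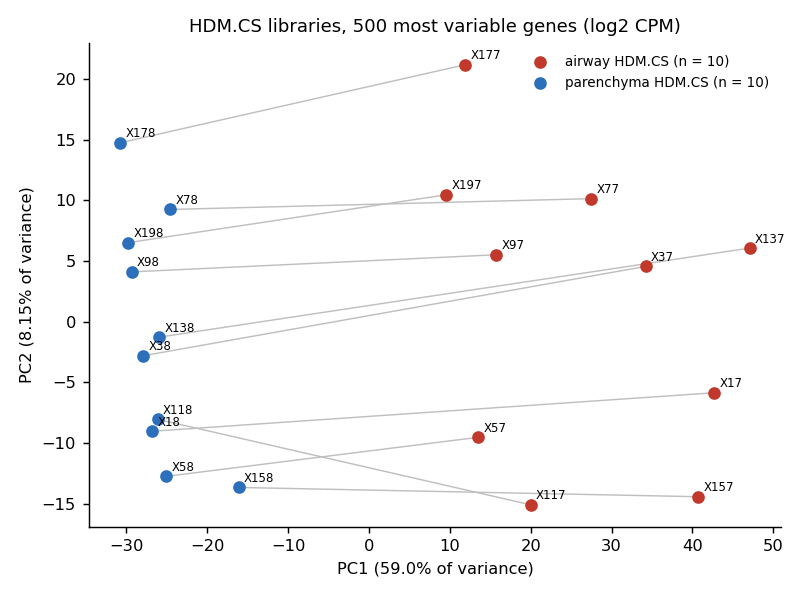
First and second principal components (with their share of variance) of log2 CPM of the 500 most variable genes in the 10 airway and 10 parenchyma HDM.CS libraries, each point a library and each grey line joining consecutive codes. Airway libraries lie between 9.51 and 47.1 on the horizontal axis and parenchyma libraries between -30.8 and -16.1.

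Genes of heart muscle and fat made up the top of the list. All 16 tested cardiac muscle genes and 8 of 9 adipose genes were higher in airway, with median log2FC values of 3.67 and 5.44. Nppa, which encodes atrial natriuretic peptide, had 6.27, 20.9 and 198.9 CPM in the lowest, median and highest airway library and at most 3 counts in any parenchyma library, so it was at least 458-fold higher when parenchyma is set at 3 counts per library. Adipoq, the fat cell hormone adiponectin, had 4.72, 12.7 and 66.2 CPM in airway and at most 2 counts in any parenchyma library. The other genes of largest log2FC among protein-coding genes with separated libraries were Car3 (8.40), Cfd (8.10), Sln (5.66) and Mybphl (5.66), which are likewise genes of fat or striated muscle. Each of these 6 genes lost its call when genes were kept only at 10 CPM or more in 9 libraries, with adjusted p of 0.0607 for Car3 to 0.285 for Nppa and log2FC of 5.604 for Mybphl to 9.49 for Nppa. The summed level of the cardiac list ran from 187.8 to 1201 CPM in airway and from 39.7 to 64.6 CPM in parenchyma, and that of the adipose list from 80.6 to 925 and from 6.21 to 14.5 CPM. Where the heart muscle and fat transcripts came from, and how much such tissue contributed to other genes, was not tested. In these bulk samples, fewer cells of a type and less RNA per cell cannot be told apart.

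Secretory genes of the airway epithelium were higher in airway. In the club cell list 6 of 12 tested genes were higher in airway and none was lower, with a median log2FC of 1.37. Bpifa1 (chr2:154142880-154149219, plus strand, GRCm38), which encodes an antimicrobial protein of the airway surface liquid, had 560.3, 1197 and 4527 CPM in airway and 47.4, 66.3 and 140.9 CPM in parenchyma. No libraries overlapped (log2FC 4.25, SE 0.45, adjusted p = 5.24e-13). Reg3g, an antibacterial lectin, behaved alike, with 736 CPM in the median airway and 83.7 CPM in the median parenchyma library (log2FC 3.33, SE 0.43, adjusted p = 3.29e-09). Scgb3a1 (1.93) and Bpifb1 (2.97) were also higher without overlap. Scgb1a1, the most abundant gene of the list and the classic club cell marker, lay instead at 11466, 23381 and 29196 CPM in airway and 14897, 19787 and 30876 CPM in parenchyma, with overlapping libraries (log2FC 0.09, SE 0.16, adjusted p = 0.752).

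In the goblet cell and mucus list 12 of 16 genes were higher in airway and none was lower, with a median log2FC of 1.82. The gel-forming mucins Muc5ac (log2FC 2.15, SE 0.32, adjusted p = 2.20e-07) and Muc5b (log2FC 1.503, SE 0.26, adjusted p = 6.39e-06) were both among them. Muc5ac had 11.1, 23.997 and 102.1 CPM in airway and 2.87, 6.32 and 16.4 CPM in parenchyma. The ranges met, with 7 airway libraries above the highest parenchyma library. Gp2, a glycoprotein that binds bacteria, had 98.7, 190.01 and 404 CPM against 25.4, 43.1 and 61.7 CPM without overlap (log2FC 2.19, SE 0.29, adjusted p = 5.54e-09). The transcription factors of mucous cells Spdef (1.01) and Foxa3 (1.13) were higher in airway as well, and Spdef lost its call in 6 of the 20 fits that each left out 1 library, without X17 and X137 and in the fit without dexamethasone groups. Clca1, a secreted marker of allergic mucus cells, ran from 3.63 to 476 CPM in airway and from 1.33 to 106.7 CPM in parenchyma (log2FC 2.12, SE 0.59, adjusted p = 0.00502). In a fit of the 20 libraries alone Clca1 did not pass both limits.

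Prss30, a membrane-anchored serine protease, had the smallest p-value of all genes. It lies at chr17:23972126-23980566, minus strand, and it had 17.3, 46.8 and 109.5 CPM in airway and 3.50, 7.37 and 12.99 CPM in parenchyma (log2FC 2.77, SE 0.27, adjusted p = 2.54e-14). The next was Dcn, the matrix proteoglycan decorin, at 120.3, 245 and 541 and 31.1, 49.6 and 59.9 CPM (log2FC 2.43, SE 0.25, adjusted p = 2.90e-13). All airway libraries exceeded all parenchyma libraries for both genes.

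Basal and squamous genes were higher in 8 of 10 tested cases, with a median log2FC of 2.33. They included Krt5 (log2FC 4.52, SE 0.96, adjusted p = 2.15e-04, not called under the 10 CPM filter with adjusted p = 0.0905) and Krt17, a keratin of which no parenchyma library had more than 3 counts, so that airway was at least 8.13-fold higher. Trp63, the basal cell transcription factor p63, had 2.87, 5.47 and 9.60 CPM in airway and 0.573, 0.966 and 1.31 CPM in parenchyma without overlap (log2FC 2.53, SE 0.42, adjusted p = 2.67e-06).

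The ciliated cell genes showed a small difference. Of 28 tested genes 26 were higher in airway at an adjusted p under 0.05, against 12.1% of all tested genes, but only Hydin and Lrriq1 also reached a log2FC of 1, and Hydin did not without airway library X137, without parenchyma library X18, without X17 and X137 or with sample quality weights, and Lrriq1 did not without X17 and X137. The median log2FC was 0.76, and members ran from 0.24 to 1.09. Foxj1, the master transcription factor of motile cilia, had 103.7, 129.1 and 181.1 CPM in airway and 67.5, 79.4 and 108.05 CPM in parenchyma, with a narrow overlap (log2FC 0.75, SE 0.16, adjusted p = 1.89e-04). Tekt4, a tektin of the ciliary microtubules, had 13.6, 18.1 and 25.2 CPM against 8.65, 11.01 and 13.5 CPM and its libraries did not overlap (log2FC 0.75, SE 0.15, adjusted p = 1.15e-04).

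Promoters of the ciliated cell list were read for a sequence feature that the choice of the list did not use. The letters GTTGCC, the core of the X-box bound by RFX factors, which drive cilia genes together with FOXJ1, were searched on both strands of the window from 250 bases before to 50 after the start site. They occurred in 13 of the 24 ciliated cell genes with a promoter in the RefSeq table (54.2%) and in 1924 of 12926 tested genes (14.9%). The promoters of Sntn, which encodes a protein of the ciliary tip, and of Tekt4 are shown. Both genes were picked, by small p-value, among list genes with a match that are called for a smaller gap than in PBS.AIR mice, as given further on. A match was thus a condition for being shown. Both promoters are RefSeq sequence on GRCm38.p6, plus strand, at chr14:13670626-13670925 and chr17:25471340-25471639, with the match or its reverse complement in capitals.
Sntn: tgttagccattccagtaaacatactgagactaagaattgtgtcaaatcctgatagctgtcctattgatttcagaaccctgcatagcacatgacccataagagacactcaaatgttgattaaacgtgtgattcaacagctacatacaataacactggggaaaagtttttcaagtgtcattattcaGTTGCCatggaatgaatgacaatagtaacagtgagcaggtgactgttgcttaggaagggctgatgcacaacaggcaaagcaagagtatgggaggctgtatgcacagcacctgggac
Tekt4: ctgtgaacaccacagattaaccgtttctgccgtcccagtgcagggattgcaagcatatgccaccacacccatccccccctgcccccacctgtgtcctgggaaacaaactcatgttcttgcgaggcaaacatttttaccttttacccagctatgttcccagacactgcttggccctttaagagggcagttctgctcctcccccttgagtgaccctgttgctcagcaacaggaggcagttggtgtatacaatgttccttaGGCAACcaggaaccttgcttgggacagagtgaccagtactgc
A match is a description of the letters in the window and no evidence of binding.

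Genes of smooth muscle and cartilage were higher in airway too. The paper discusses both airway and vascular smooth muscle, and which of these the transcripts came from was not tested. In the smooth muscle list 10 of 16 genes were higher, against 4.88% of all tested genes, with a median log2FC of 1.25. For 10 genes the libraries did not overlap, against 2.65% of all tested genes. Acta2, smooth muscle actin (chr19:34241090-34255590, minus strand), had 99.6, 148.2 and 290.3 CPM in airway and 39.5, 57.3 and 77.3 CPM in parenchyma (log2FC 1.45, SE 0.21, adjusted p = 1.66e-07). Cnn1, the actin-binding protein calponin, had 27.5, 48.7 and 156.5 and 6.95, 10.2 and 13.2 CPM (log2FC 2.35, SE 0.31, adjusted p = 4.05e-09). Of 17 tested cartilage genes 10 were higher, among them Acan, the core proteoglycan of cartilage. Acan was at 0 in all 10 parenchyma libraries and at least 9.54-fold higher in airway, where its mean was 1.05 CPM. Too few HDM.CS libraries reached the count minimum for Acan, so it was tested only because libraries of other exposures passed. The fit of the HDM.CS libraries alone did not test Acan. In the Schwann cell and nerve list 8 of 12 genes were higher (median log2FC 1.41), although the summed level of that list was lower in airway, at 367 to 583 CPM against 548 to 719 CPM. Among the receptors that set airway tone, Chrm2, the muscarinic M2 receptor (log2FC 1.84, SE 0.38, adjusted p = 1.38e-04), and Tacr1, the substance P receptor (log2FC 1.604, SE 0.35, adjusted p = 2.63e-04), were the only 2 of 21 genes called. At an adjusted p under 0.05 without the size limit, 4 of the 21 were lower in airway, against 7.86% of all tested genes. How much heart muscle contributed to the Chrm2 gap was not tested.

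**Figure D2:**
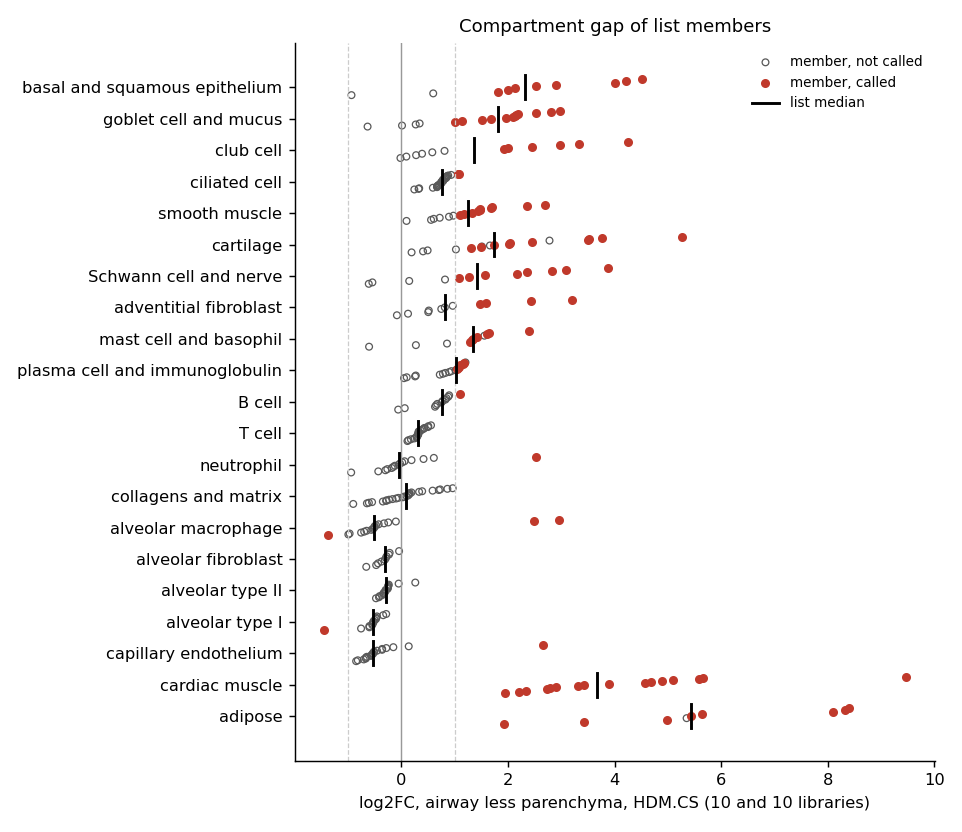
Log2FC of each tested member of 21 gene lists, airway less parenchyma in HDM.CS mice (10 and 10 libraries), with filled points for called genes and a black bar at each list's median. Airway epithelial, smooth muscle and cartilage lists lie to the right of 0, with medians from 0.76 to 2.33, and alveolar and capillary lists to the left, with medians from -0.54 to -0.30.

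Genes of alveolar type I cells and capillaries were lower in airway by small amounts. Of 14 alveolar type I genes 12 were lower at an adjusted p under 0.05, against 7.86% of all tested genes, with a median log2FC of -0.53. Only Igfbp2, a carrier of insulin-like growth factors, also fell past the size limit, with 10.9, 43.3 and 104.7 CPM in airway and 81.5, 107.8 and 155.4 CPM in parenchyma (log2FC -1.45, SE 0.30, adjusted p = 1.27e-04). The ranges overlapped. Of 19 capillary genes 13 were lower at an adjusted p under 0.05 (median log2FC -0.54), and none of them passed the size limit. Among them was Car4, a carbonic anhydrase of the alveolar capillary (log2FC -0.71, SE 0.22, adjusted p = 0.0112). Sostdc1 of the same list was called higher in airway (log2FC 2.65, SE 0.62, adjusted p = 7.94e-04). The fit of the HDM.CS libraries alone did not test Sostdc1. Of 16 type II genes only 1, Sftpc, was lower at an adjusted p under 0.05, a count near the 7.86% of all tested genes. Sftpc had 5059.5, 7355 and 12432 CPM in airway and 8591, 11203 and 12763 CPM in parenchyma, with overlapping ranges (log2FC -0.48, SE 0.18, adjusted p = 0.0463).

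The 3 lower genes of smallest p-value were Il18, Snx24 and Hsd3b7. Il18, a cytokine of the interleukin-1 family, had 8.11, 16.3 and 26.2 CPM in airway and 17.4, 32.01 and 43.3 CPM in parenchyma with overlap (log2FC -1.08, SE 0.20, adjusted p = 2.20e-05). Snx24, a sorting nexin (-0.38), and Hsd3b7, an enzyme of bile acid synthesis (-0.32), differed by far less than the size limit. Without airway library X137, or without X17 and X137 together, Il18 did not reach the size limit. Among the 40 lower genes most had a mean under 1 CPM, and those above 5 CPM in parenchyma were Igfbp2, Il18, Cxcr1 and Lipf, of which Cxcr1 and Lipf are named after their values were seen. Cxcr1, a chemokine receptor, had 2.35, 7.13 and 11.9 CPM in airway and 11.05, 16.2 and 25.6 CPM in parenchyma (log2FC -1.40, SE 0.39, adjusted p = 0.00472).

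Leukocyte genes divided by cell type. Of 18 alveolar macrophage genes 8 were lower in airway at an adjusted p under 0.05 (median log2FC -0.51), including the scavenger receptor Marco (log2FC -0.996, SE 0.29, adjusted p = 0.00842) and Siglecf, a surface lectin of these cells (log2FC -0.70, SE 0.19, adjusted p = 0.00524). The members called higher, Fabp4 and Cidec (the latter not under the 10 CPM filter), are also fat cell genes, and the only member called lower was Fabp1, which edgeR and DESeq2 did not call and which lost its call without airway library X137, without X17 and X137, or without parenchyma library X118. Of 11 mast cell and basophil genes 7 were higher, led by the tryptase Tpsb2 at 0.824, 1.24 and 2.05 CPM in airway and 0.0422, 0.264 and 0.538 CPM in parenchyma without overlap (log2FC 2.39, SE 0.59, adjusted p = 0.00139). Mcpt4, another of the 7, lost its call in 10 of the 20 fits that each left out 1 library and without X17 and X137. The eosinophil granule protein Prg2 was also higher (log2FC 1.03, SE 0.31, adjusted p = 0.00951), though 7 of the 20 fits that each left out 1 library lost this call. None of the 19 T cell genes, 16 interferon response genes, 11 MHC class II genes, 23 cell cycle genes or 11 cytotoxic lymphocyte genes was called in either direction. Over all tested genes 4.88% were called higher and 0.219% lower, so lists of this size would hold few calls at that share. The T cell genes all had a log2FC above 0 (0.11 to 0.56, median 0.32), with 1 of them higher at an adjusted p under 0.05. In the neutrophil list only Ltf, lactoferrin, which glands of the airway also secrete, was called among 15 genes (log2FC 2.53, SE 0.35, adjusted p = 1.85e-08).

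Plasma cell and immunoglobulin genes were higher in airway in 7 of 19 cases, with a median log2FC of 1.02. Mzb1, a chaperone of antibody secretion, had 44.95, 110.4 and 215 CPM in airway and 24.6, 56.1 and 81.7 CPM in parenchyma (log2FC 1.15, SE 0.24, adjusted p = 1.45e-04), and Igha, the IgA heavy chain, had 574, 1416 and 2545 and 277, 730.4 and 1076 CPM (log2FC 1.17, SE 0.32, adjusted p = 0.00452). The ranges of both genes overlapped between compartments. Ighg1 reached 12759 CPM in an airway library but did not pass the test (log2FC 1.203, SE 0.64, adjusted p = 0.189). Genes of lymphoid follicles were higher in 3 of 12 cases, which were Cxcl13 (log2FC 1.21, SE 0.36, adjusted p = 0.0103) and Ccl19 (log2FC 1.41, SE 0.46, adjusted p = 0.0199), chemokines that gather B cells and T cells, and the complement receptor Cr2 (log2FC 1.10, SE 0.31, adjusted p = 0.00582). Cxcl13 and Ccl19 did not pass without airway libraries X17 and X137, and Cr2 did not without airway library X157.

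Immunoglobulin variable (V) genes, which each B cell clone uses in 1 combination, marked pairs of libraries. Of 92 heavy chain, 94 kappa and 3 lambda V genes tested 51 were called higher in airway and none lower, and none had separated libraries. Igkv4-69 lay at 132.5 CPM in airway library X97 and 64.9 CPM in parenchyma library X98, with medians of 0.512 and 0.569 CPM in the compartments. Igkv14-130 ran from 0.200 to 34.7 CPM in airway and from 0.0382 to 19.1 CPM in parenchyma. For 120 of these genes the highest airway and the highest parenchyma library had consecutive codes. Over all V genes tested, the correlation (Pearson r) of deviations from the compartment mean was 0.80 to 0.89 for the 10 pairs of consecutive codes and -0.29 to 0.19 for the 90 other pairs. Genes are not independent, and these values describe the libraries without a test. Over all 18036 other tested genes the same pairs had r of 0.19 to 0.51. Each airway library was closest to the next code in both cases.

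**Figure D3:**
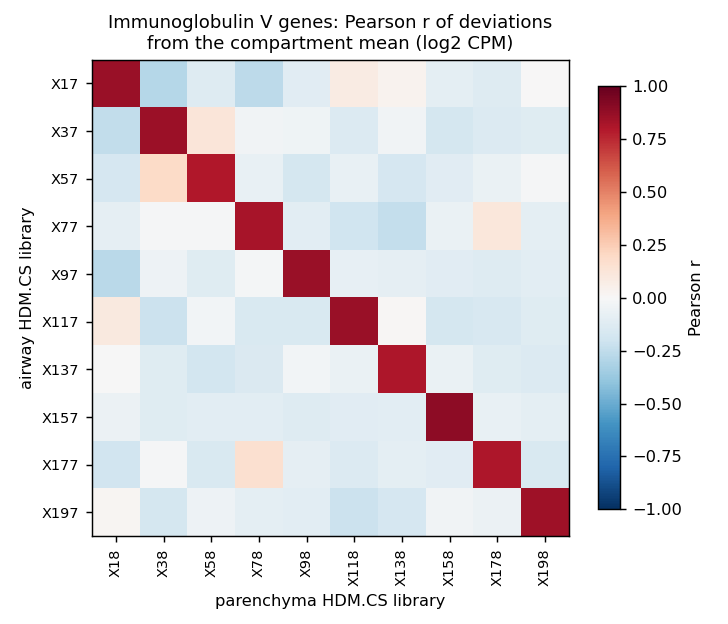
Pearson r of the log2 CPM deviations of all tested immunoglobulin V genes from their compartment mean, for each airway HDM.CS library (rows) against each parenchyma HDM.CS library (columns), on a colour scale from -1 to 1. Cells on the diagonal, which join consecutive codes, hold 0.80 to 0.89, and the other cells hold -0.29 to 0.19.

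Whether the compartment gap in HDM.CS mice differed from that in mice without exposure was tested as the difference of the 2 gaps in the same fit. In PBS.AIR mice 2449 genes were higher in airway (13.4% of those tested) and 495 were lower (2.71%), and the HDM.CS gap had 891 and 40. The gap was lower in HDM.CS for 1049 genes (5.75%) and higher for 63 (0.345%). These differences, and those from HDM.AIR and PBS.CS given next, share the HDM.CS libraries.

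The ciliated cell list held the largest share, with 25 of 28 genes called for a lower gap. Foxj1 had 209 ± 62.4 CPM (mean ± SD, n = 10) in airway and 45.4 ± 8.28 CPM in parenchyma of PBS.AIR mice, and 136.04 ± 24.5 and 80.6 ± 11.9 CPM in HDM.CS mice (log2FC -1.42, SE 0.23, adjusted p = 6.77e-07 for the difference of gaps). Its mean was thus lower in airway and higher in parenchyma than in PBS.AIR, which was not tested within a compartment for this or the genes that follow. Sntn, whose promoter is shown above, followed the same course, from 69.2 ± 24.5 and 11.9 ± 1.64 CPM to 37.3 ± 8.13 and 22.1 ± 3.93 CPM (log2FC -1.73, SE 0.26, adjusted p = 1.62e-07), and Tekt4 had a difference of -1.46. The median gap of the list was 2.17 in PBS.AIR, 1.37 in PBS.CS, 0.78 in HDM.AIR (1.05 without X109 and X90) and 0.76 in HDM.CS.

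In the club cell list 8 of 12 genes had a lower gap. Scgb1a1 differed mainly in airway, from 49261 ± 5812 CPM in PBS.AIR to 22611 ± 5599.9 CPM in HDM.CS, with parenchyma at 21239 ± 3859.6 and 20903 ± 4686 CPM (log2FC -1.13, SE 0.23, adjusted p = 5.62e-05). The genes of smallest p-value for a lower gap were Slc11a2, Pigr and Dmkn. Pigr, the receptor that carries IgA into secretions (chr1:130826684-130852249, plus strand), had 412 ± 155.1 CPM in airway and 94.6 ± 46.99 CPM in parenchyma of PBS.AIR mice and 1499.7 ± 252 and 1180.3 ± 182.2 CPM in HDM.CS mice (log2FC -1.82, SE 0.21, adjusted p = 4.16e-11). Both compartment means were above those of PBS.AIR. Slc11a2, an iron transporter, had 113.3 ± 25.1 CPM in airway and 47.6 ± 3.75 CPM in parenchyma of PBS.AIR mice, against 79.4 ± 10.5 and 73.2 ± 5.87 CPM in HDM.CS mice (log2FC -1.11, SE 0.11, adjusted p = 1.24e-13). Dmkn, an epithelial secreted protein, had a difference of -1.89 (adjusted p = 4.95e-11).

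Slpi, Prdm1 and Cxcr4 were the genes of smallest p-value with a higher gap in HDM.CS. Slpi, the secretory leukocyte protease inhibitor (chr2:164354070-164389095, minus strand), had 255, 847 and 1805 CPM in airway and 152.2, 391.7 and 657 CPM in parenchyma of HDM.CS mice, and its mean was 23.8 ± 7.36 and 44.6 ± 16.5 CPM in PBS.AIR mice. Airway had the higher mean in HDM.CS and the lower mean in PBS.AIR (log2FC 1.98, SE 0.32, adjusted p = 8.77e-07). Prdm1, the transcription factor of plasma cells and of effector lymphocytes, had a gap of 0.10 (adjusted p = 0.667) in HDM.CS and a higher gap than in PBS.AIR (log2FC 1.15, SE 0.20, adjusted p = 2.63e-06, not called with sample quality weights). Cxcr4, the receptor of the chemokine CXCL12, had 50.1 ± 14.6 and 95.1 ± 12.3 CPM in PBS.AIR and 88.9 ± 6.70 and 86.9 ± 7.10 CPM in HDM.CS (log2FC 1.01, SE 0.17, adjusted p = 2.87e-06). The Cxcr4 difference was close to the size limit, and it lost its call by edgeR, by DESeq2, with sample quality weights and without airway library X77 or parenchyma library X138.

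Smooth muscle genes had a lower gap for 10 of 16 members, and cardiac muscle genes for 8 of 16. Acta2 went from 272 ± 121.5 and 29.97 ± 4.70 CPM in PBS.AIR to 160.7 ± 59.2 and 56.998 ± 11.6 CPM in HDM.CS (log2FC -1.60, SE 0.31, adjusted p = 3.35e-05). The summed cardiac level in PBS.AIR airway ran from 421 to 4707 CPM with a median of 1996 CPM, against a median of 464 CPM in HDM.CS airway. The part of heart muscle tissue in the smooth muscle difference was not tested. The median difference of the 10 tested basal and squamous genes was -1.34 (range -3.30 to 0.51), against -1.35 for the ciliated list, but none passed the test. For the 11 mast cell and basophil genes it was -0.68 (range -2.34 to 1.19), and none was called. The cytotoxic lymphocyte list went the other way, with 3 of 11 genes called for a higher gap, among them Prf1, perforin (log2FC 1.09, SE 0.38, adjusted p = 0.0314), which lost its call by edgeR, by DESeq2, with sample quality weights and without airway library X117 or X157.

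**Figure D4:**
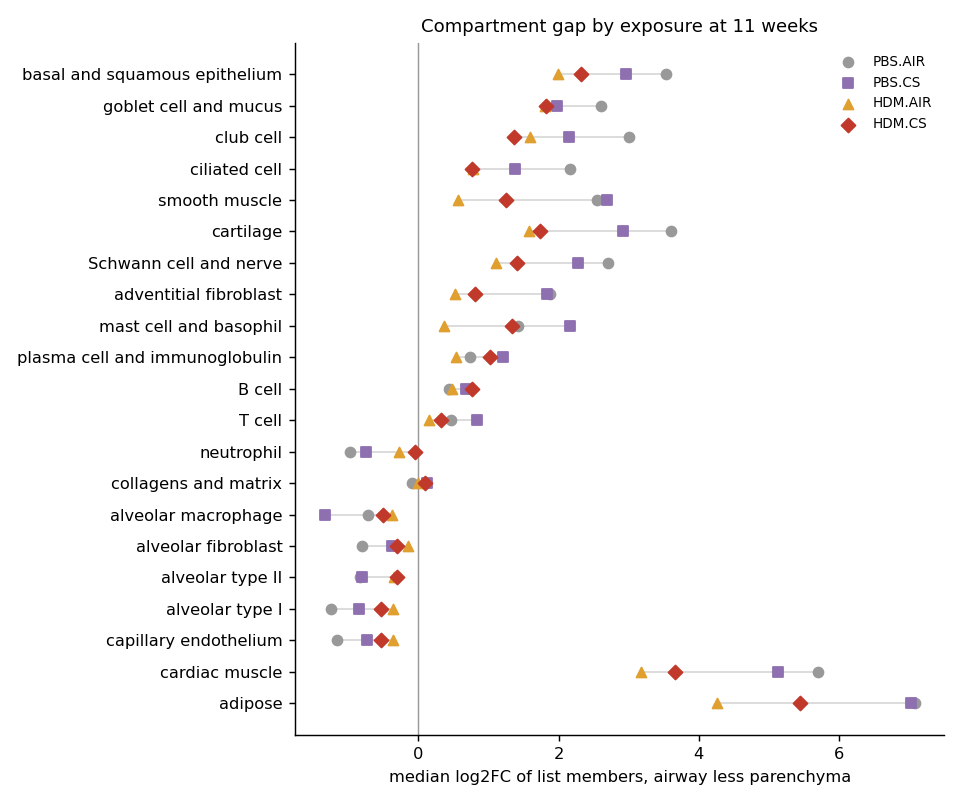
Median log2FC, airway less parenchyma, of the tested members of 21 gene lists in PBS.AIR, PBS.CS, HDM.AIR and HDM.CS mice at 11 weeks. The ciliated cell median is 2.17 in PBS.AIR and 0.76 in HDM.CS, and the smooth muscle median is 2.55 in PBS.AIR, 2.69 in PBS.CS, 0.57 in HDM.AIR and 1.25 in HDM.CS. HDM.AIR points include libraries X109 and X90, without which the ciliated and smooth muscle medians are 1.05 and 0.63.

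Against PBS.CS mice, which had smoke without HDM, 40 genes had a lower gap in HDM.CS (0.219%) and 17 had a higher one (0.0932%). In PBS.CS itself 2056 genes were higher in airway (11.3%) and 1.12% were lower. Smooth muscle led the lower genes, with 7 of 16 list members called. Acta2 had 296 ± 184.8 CPM in airway and 28.2 ± 3.71 CPM in parenchyma of PBS.CS mice, compared with 160.7 ± 59.2 and 56.998 ± 11.6 CPM in HDM.CS (log2FC -1.69, SE 0.31, adjusted p = 0.00133). Tagln, transgelin of smooth muscle (log2FC -1.45, SE 0.29, adjusted p = 0.0037), and Sema3d, a guidance protein (log2FC -1.52, SE 0.29, adjusted p = 0.00168), had the next smallest p-values. Slpi again had the smallest p-value of the higher genes, at 58.4 ± 16.3 and 90.96 ± 20.1 CPM in PBS.CS (log2FC 1.75, SE 0.31, adjusted p = 8.92e-04). Stac2 (log2FC 1.13, SE 0.26, adjusted p = 0.0179) and Cd200r4, an activating receptor of myeloid cells (log2FC 1.14, SE 0.27, adjusted p = 0.0211), followed. Stac2 and Cd200r4 lost their calls with sample quality weights, and Cd200r4 also by edgeR and DESeq2. With pairs of consecutive codes as a block, 237 genes had a lower and 37 a higher gap, and without parenchyma library X58 the counts were 20 and 6.

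Against HDM.AIR mice, which had HDM without smoke, no gene was called for a different gap (0.0%), and none had an adjusted p under 0.05. At an unadjusted p under 0.05 there were 327 genes. In HDM.AIR itself 545 genes were higher in airway (2.99%) and 9 were lower (0.0493%), and these counts were 1018 and 50 without X109 and X90 and 1001 and 48 without X129 as well. By edgeR 64 genes had a higher gap in HDM.CS and none a lower one, by DESeq2 68 and 1, and with the pair block 19 and 0. Leaving out X109 and X90, or these and airway library X129, gave 0 genes again for the difference, with 501 and 513 at the unadjusted limit. X129 was included there because its V gene deviations were closer to parenchyma library X110 (r = 0.65) than to X130 (r = 0.46).

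The gap of Acta2 illustrates the range: 102.6 ± 31.3 CPM in airway and 65.2 ± 12.8 CPM in parenchyma of HDM.AIR mice, a difference from HDM.CS that did not pass (log2FC 0.84, SE 0.30, adjusted p = 1). Without X109 and X90 the Acta2 means were 108.4 ± 26.97 and 66.9 ± 12.4 CPM (n = 9 each) and the difference 0.76. For Slpi the HDM.AIR means were 2681 ± 857 and 1851 ± 849 CPM, above those of HDM.CS in both compartments (log2FC 0.47, SE 0.37, adjusted p = 1 for the difference of gaps), and without X109 and X90 the Slpi means were 2762 ± 867 and 1672 ± 673 CPM with a difference of 0.29. Prss30 had 43.8 ± 21.3 and 3.84 ± 2.78 CPM in HDM.AIR but 1.56 ± 1.36 and 0.816 ± 0.342 CPM in PBS.AIR and 3.10 ± 1.80 and 0.939 ± 0.2502 CPM in PBS.CS, so its high airway level was seen in the groups with HDM. Without X109 and X90 the Prss30 means in HDM.AIR were 47.7 ± 18.5 and 3.03 ± 1.07 CPM. Its gap was higher in HDM.CS than in PBS.AIR (log2FC 2.18, SE 0.72, adjusted p = 0.0203, not called under the 10 CPM filter), and the difference from PBS.CS did not pass (log2FC 1.23, SE 0.64, adjusted p = 0.333).

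**Figure D5:**
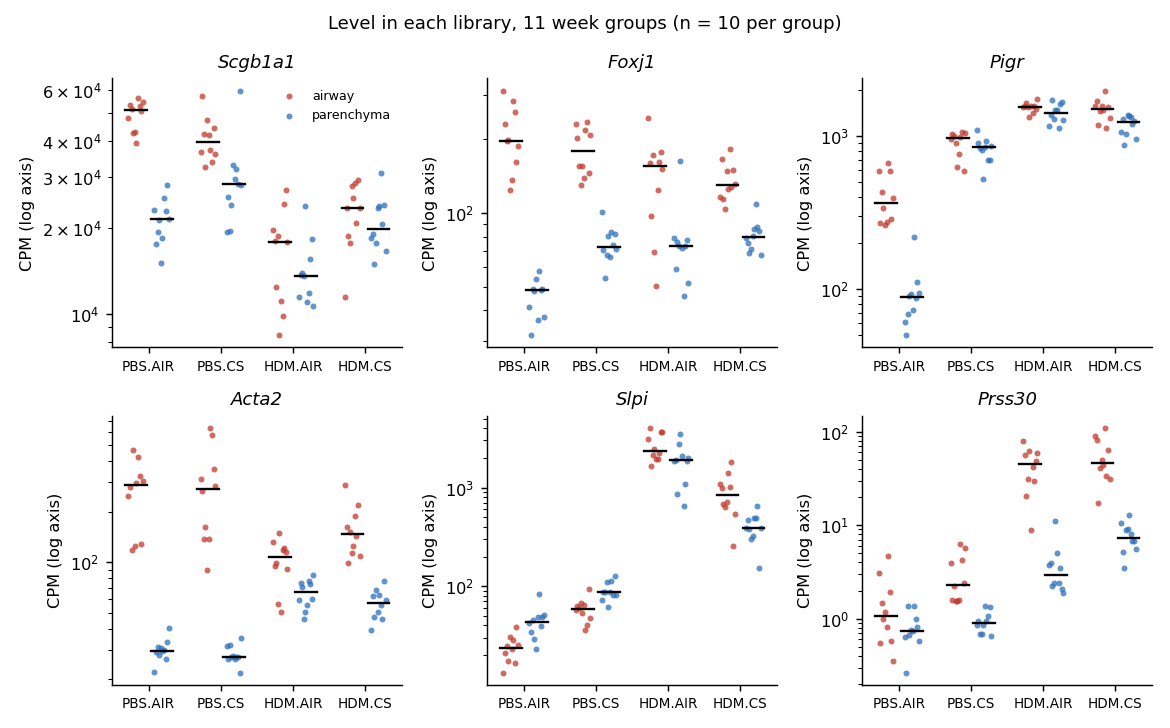
CPM on a log axis of Scgb1a1, Foxj1, Pigr, Acta2, Slpi and Prss30 in each airway and parenchyma library of the 4 exposures at 11 weeks (n = 10 per group), each point a library and each bar a median. For Acta2 and Prss30 all HDM.CS airway libraries lie above all HDM.CS parenchyma libraries, while those of Scgb1a1 and Slpi overlap.

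Enzymes that handle inhaled chemicals differed gene by gene. Of 21 xenobiotic metabolism genes 4 were higher in airway, including the cytochrome Cyp2a5 at 141.7, 229 and 549 CPM against 25.2, 45.2 and 121.2 CPM without overlap (log2FC 2.47, SE 0.38, adjusted p = 4.07e-07). The smoke-inducible Cyp1a1 had 16.4, 48.3 and 210.4 CPM in airway and 17.1, 75.1 and 301 CPM in parenchyma, with full overlap (log2FC -0.57, SE 0.50, adjusted p = 0.488). Of 20 genes of the aryl hydrocarbon receptor and NRF2 responses only Aldh3a1, an aldehyde dehydrogenase, was called (log2FC 1.05, SE 0.28, adjusted p = 0.0028). That count was close to the share over all tested genes, of which 4.88% were called higher and 0.219% lower. Aldh3a1 lost its call without airway library X137, without X177, and without X17 and X137. In the Wnt pathway list 4 of 23 genes were higher in airway, namely the ligand Wnt7b (1.15), the inhibitors Dkk2 (1.98) and Sfrp4 (1.91), and the receptor Lgr6 (2.48). Among 31 lung patterning factors Sox2, of the proximal epithelium (log2FC 1.02, SE 0.18, adjusted p = 6.52e-06), and Sox9 (log2FC 1.73, SE 0.36, adjusted p = 1.85e-04) were called. This count too was near the share over all tested genes. Sox2 lost its call in 5 of the 20 fits that left out 1 library and without X17 and X137. Sox9 is also a member of the cartilage list, and how much cartilage contributed to its gap was not tested.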

How the data were processed

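The authors sequenced single reads of 100 bases, and per the labels and the study's methods used bcl2fastq 2.20.0.422, STAR 2.5.1b on mm10, RSEM 1.2.31 and kallisto 0.44.0. They deposited 1 unscaled table of estimated counts for all libraries, and which quantifier made it is not stated. Counts were rounded, since 20.3% of those above 0 had decimals. Reads of near-identical genes, such as immunoglobulin V genes, are shared out by the quantifier.

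The study's filter can be read as 10 counts at median depth (0.353 CPM) or as 10 CPM, in at least 9 libraries. The first reading was chosen, giving 18250 genes, and the second was an alternative that removed many calls. The 160 libraries at 11 weeks were fitted with 1 mean per group (16 groups) by limma 3.58.1 with voom, TMM factors from edgeR 4.0.16 and Benjamini-Hochberg adjustment over all genes, in R 4.3.3. Python 3.11.15 was used for summaries. DESeq2 1.42.0 was an alternative. Scripts were tested on simulated data. Symbols and coordinates came from GENCODE M21, which held 42462 of 43346 identifiers.

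The members, gene lists and rules were chosen with earlier results of these data known. Named genes were those with the 6 largest log2FC among called protein-coding genes with separated libraries and 5 CPM, the 3 smallest p-values per direction, list members, and, for each group, the 6 of largest spread. Consecutive codes were accepted as pairs because deviations of all 10 airway and parenchyma pairs correlated over 0.1 (0.25 to 0.57), as the data show and not the labels. Whether libraries came from separate mice within a compartment is not stated, and p-values measure the spread between libraries.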

Additional observations from a re-analysis of the deposited data

Results flagged for a closer look

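Each of these values was looked at again because 1 library stood apart from the other 9 of its group or because the compartment gap differed between exposures. Among the groups of 10 values examined for a library standing apart, 7 were found (3.59%), where chance alone gives about 1 in 20. They were Chrm2 in parenchyma X58 (5.54 CPM), Il18 in parenchyma X58 (17.4 CPM), Cnn1 in airway X17 (156.5 CPM), Dkk2 in airway X17 (5.19 CPM), Il21 in airway X57 (0.555 CPM), Lum in parenchyma X78 (1.37 CPM) and parenchyma X158 on the first principal component (-16.1). The last was the parenchyma library nearest to the airway libraries.

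The gap in HDM.CS differed from that in PBS.AIR for 63 genes upward and 1049 genes downward, with the smallest p-values for Slpi (1.98), Prdm1 (1.15), Cxcr4 (1.01), Slc11a2 (-1.11), Pigr (-1.82) and Dmkn (-1.89), as log2FC of the difference. It differed from that in PBS.CS for 17 genes upward and 40 genes downward, with Slpi (1.75), Stac2 (1.13), Cd200r4 (1.14), Acta2 (-1.69), Sema3d (-1.52) and Tagln (-1.45) in front.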

How the results depend on the processing

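The gene values examined were all called in the main fit, so none could gain a call, and none changed direction under an alternative. Under limma's treat test against a log2FC of 1, 89 of them no longer passed. The gap within HDM.CS counted 891 genes higher and 40 lower in airway, and leaving out each library in turn gave 763 to 1000 and 28 to 51. It gave 254 and 3 under a filter of 10 CPM (9 libraries), where 14 of 88 named gene values lost their call, and 97 and 0 under treat. With no filter on low counts 969 genes were higher and 67 lower. The 20 HDM.CS libraries alone gave only 601 higher and 21 lower, of 16616 genes tested. With the replicate block by round of 20 codes added to these, 722 were higher and 20 lower. Without airway libraries X17 and X137, which had the highest basal and cartilage levels, 614 were higher and 18 lower. The stricter filter tests fewer genes, and otherwise the cause was not tested. The difference from PBS.AIR, 63 higher and 1049 lower, gave 53 to 71 and 977 to 1135 with 1 library left out, 13 and 438 at the CPM filter, and 0 and 4 under treat. The difference from HDM.AIR, 0 genes, gave 64 higher by edgeR, 68 higher and 1 lower by DESeq2, 1 lower with no filter and 19 higher with the pair block, and 0 genes in each fit with 1 HDM.CS library left out. The difference from PBS.CS, 17 higher and 40 lower, was the least stable, at 6 to 22 and 20 to 49 with 1 library left out (lowest without parenchyma X58, and moved past 1.5 times also without X77, X97, X178 or X197), 7 and 96 by edgeR, 10 and 1.2e+02 by DESeq2, 3 higher with sample quality weights, 13 lower at the CPM filter, 0 and 0 under treat, 67 lower with the replicate block by round, and 37 and 237 with the pair block. With the replicate block by pair of consecutive codes, the gap within HDM.CS counted 1076 genes higher and 36 lower. The difference from PBS.AIR counted 83 higher and 1360 lower under the same block. It changed no call among the gene values. Alternatives that leave out named libraries, drop immunoglobulin genes or use the pair block were chosen after seeing the data.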

Other observations

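The same V gene comparison was made in the other exposures at 11 weeks. Consecutive airway and parenchyma codes had r of 0.35 to 0.60 in PBS.CS (10 of 10 airway libraries closest to the parenchyma library of the adjacent code) and -0.03 to 0.34 in PBS.AIR (6 of 10). In HDM.AIR the median was 0.89, with 9 of 10 closest and X129 the exception. Between airway HDM.CS and airway HDM.AIR libraries of the same round of 20 codes, r was -0.13 to 0.12.

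The genes that varied most among airway HDM.CS libraries included Ucp1, the uncoupling protein of brown fat, from 0.0308 to 119.5 CPM. In parenchyma Ucp1 reached no more than 0.414 CPM. Allergic mediators shared by both compartments also varied widely, such as Arg1, an arginine-degrading enzyme of activated macrophages, from 2.496 to 69.7 CPM in airway and from 1.73 to 47.1 CPM in parenchyma (log2FC 0.64, SE 0.39, adjusted p = 0.26).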
